A study of Mus musculus with 9 samples.

Results

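Kinesins are motor proteins that move along microtubules, and the mouse genes for most of them carry symbols that begin with Kif. The genes described here are the 35 of the 38195 in the table whose symbols are Kif followed by a number and at most a letter from a to c, without Kif3a and Kif3b. RNA was measured in 9 bulk libraries from the hypothalamus of CD-1 mouse embryos, an outbred strain, at stage E12.5, and the labels give no genotype or treatment. The 3 groups, with 3 libraries each, were pieces cut out of coronal vibratome slices: the ventricular zone (VZ) along the ventricle, the medial mantle zone (mMZ) beside it and the lateral mantle zone (lMZ) farthest out. The question was which of these motors are higher or lower from zone to zone, and how those of cell division stand against those of the axon. The labels do not tell whether replicates are different embryos, so the p-values measure only the spread between these libraries, which may be technical.

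In a developing brain wall, neural progenitors divide at the ventricle and their neuronal daughters settle in the mantle. Mitotic kinesins slide, cross-link, shorten or ride the microtubules of the spindle and of the midbody between daughter cells, and their mRNAs are typical of cycling cells. Axonal kinesins carry synaptic vesicle precursors, mitochondria and other cargo along the axons of neurons, which no longer divide. Others serve transport in most cells, the primary cilium or signalling.

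The libraries were not alike in depth. A gene's low values move in steps that correspond to single fragments, and these steps implied 4409314 to 8765574 fragments in 7 libraries, 258038 in VZ replicate 3 and 535738 in mMZ replicate 3. A single fragment on a transcript of 2 kb was worth 1.94 FPKM (fragments per kilobase of transcript, scaled to library size) in that VZ library, 0.933 FPKM in that mMZ library and 0.0570 to 0.113 FPKM elsewhere. On the sums of neuronal and of progenitor markers, VZ replicate 2 lay within the range of the mMZ libraries, away from the other VZ libraries. Its summed FPKM over 14 neuronal markers was 2006, against 907 and 687 in VZ replicates 1 and 3, 1946 to 2277 in mMZ and 2796 to 3199 in lMZ. Its sum over 9 progenitor markers was 943, against 1753 and 2047 in the other VZ libraries, 925 to 1086 in mMZ and 52.9 to 116 in lMZ. The 8 hypothalamic markers summed to 159 to 436 FPKM in VZ, 414 to 533 in mMZ and 211 to 550 in lMZ. Of them Rax was listed at 0 in all 3 lMZ libraries, while Otp had 42.4 to 99.9 FPKM in VZ and 116 to 467 in lMZ. VZ replicate 2 was not like mMZ on every marker. It was the highest of all 9 libraries for Foxb1 (46.5 FPKM), Lhx1 (57.9) and Nkx2-1 (191). VZ replicates 1 and 3 had 10.4 and 5.09 FPKM of Foxb1 and 12.9 and 2.41 of Lhx1. VZ replicate 2 lay below the mMZ range for Otp, Nkx2-2 and Six3 and within it for Rax and Sim1. In bulk tissue, fewer cells of a type and less RNA per cell cannot be told apart.

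Of the 35 kinesins, 32 reached at least 1 FPKM in at least 3 libraries and were tested, and Kif12, Kif2b and Kif9 were not. Between VZ and lMZ, 14 tested kinesins were higher and 5 lower in VZ at an adjusted p below 0.05 (limma on log2(FPKM + 1), Benjamini-Hochberg over 14004 genes). Among all tested genes 19.6% passed in that comparison, 10.7% higher and 8.93% lower. Libraries of the 2 zones did not overlap for 15 kinesins that were higher and 6 that were lower in VZ, beside 25.2% and 19.9% of all genes (45.1% in either direction). By role, all 5 mitotic kinesins were higher, with a median log2 difference of 3.15. Of the 5 axonal kinesins 3 were lower and 1, Kif21a, was higher, with a median of -1.21. The median of all genes was 0.05. Of the tested kinesins, 10 reached 1 FPKM in no lMZ library: Kif4, Kif7, Kif11, Kif14, Kif15, Kif18a, Kif18b, Kif19a, Kif20b and Kif23. Kif17 reached it in lMZ libraries alone. Such genes entered the test through the zones where they are high. These counts and medians, and the calls given below for each of those genes, are therefore descriptions. When at least 1 FPKM was required in 6 libraries, 13 kinesins were higher and 4 lower, beside 20.6% of all genes. Without VZ replicate 1 the counts were 11 higher and 1 lower, beside 8.65% of all genes. They were 9 and 1 without lMZ replicate 1 (6.82% of all genes) and 15 and 6 without VZ replicate 2 (28.6%). Without lMZ replicate 2 or 3 they were 10 and 2 (7.32% and 8.70%). Without the pair of shallow libraries they were 13 and 5 (28.3%). Trimmed-mean scaling moved the median of all genes to -0.06. Then 13 kinesins were higher and 5 lower, beside 20.6% of all genes.

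**Figure D1:**
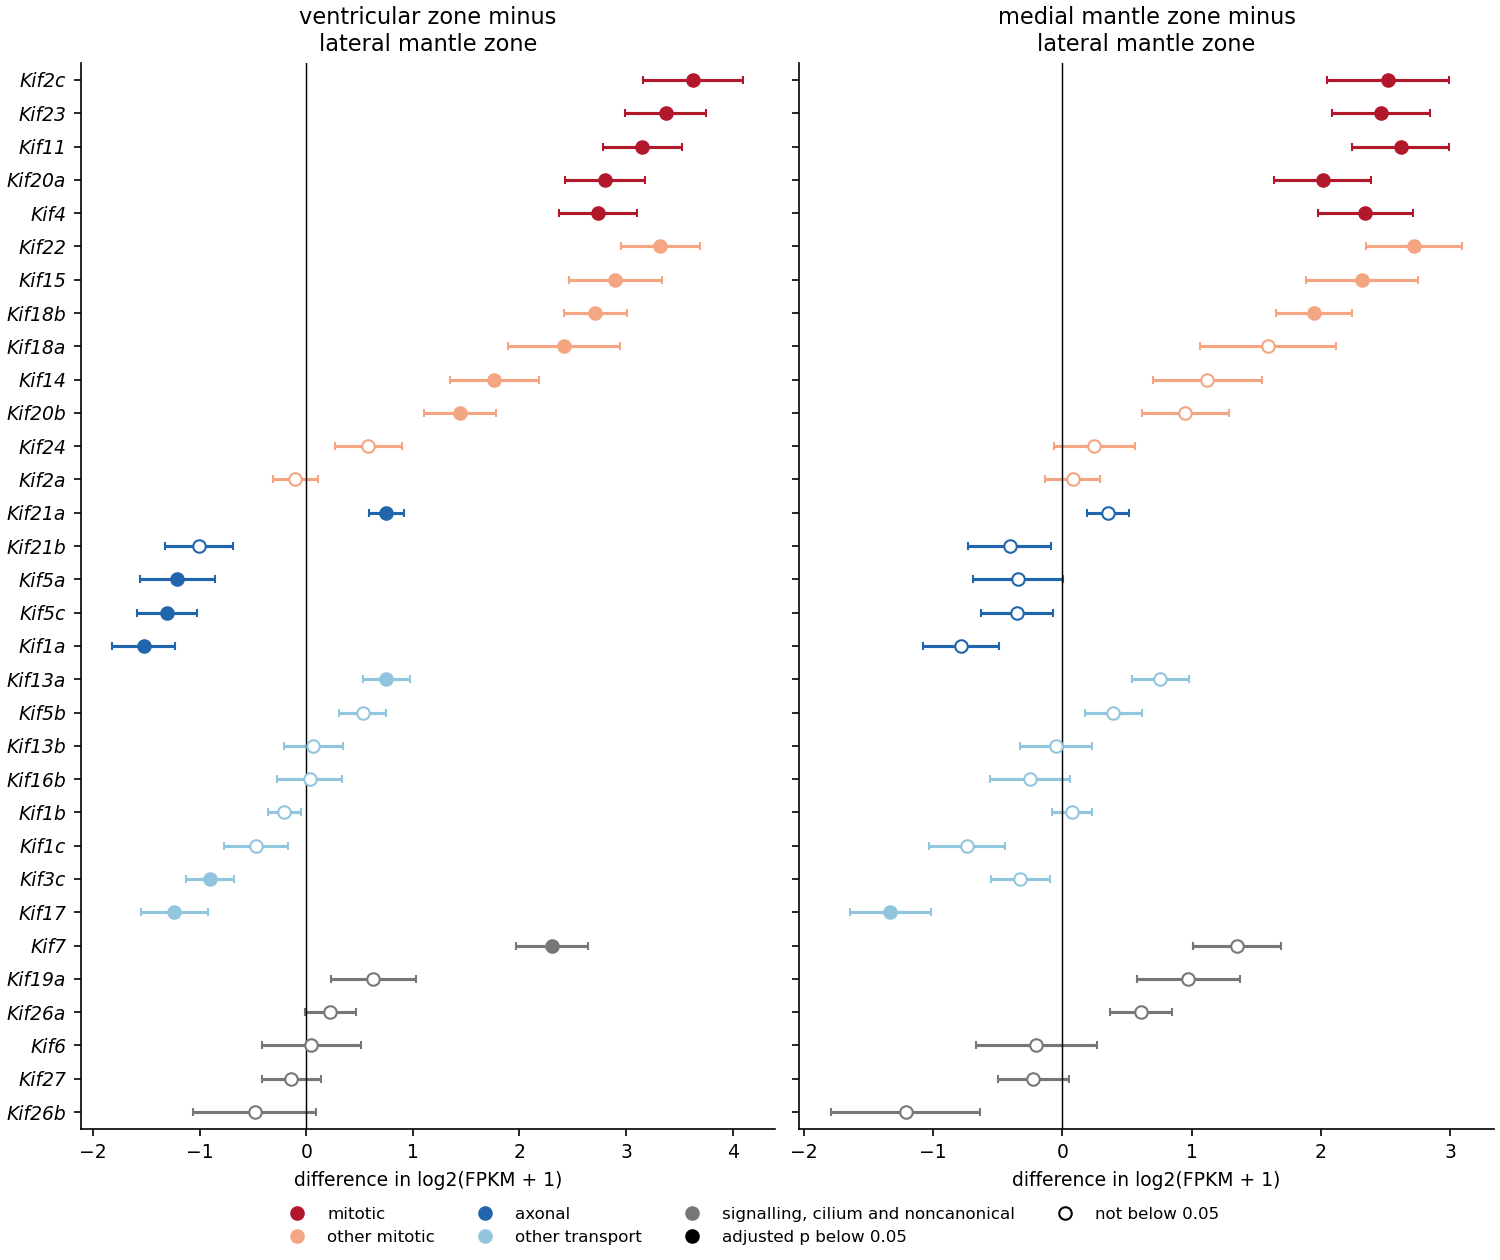
Differences in log2(FPKM + 1) of the 32 tested kinesins, VZ minus lMZ on the left and mMZ minus lMZ on the right, grouped by role; bars are standard errors of the limma fit and filled points have an adjusted p below 0.05. All 5 mitotic kinesins lie right of 0 in both panels, and among the axonal kinesins Kif21a alone lies right of 0.

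The 5 mitotic kinesins stood at 3.04 to 43.6 FPKM in the VZ and mMZ libraries and at 1.17 FPKM or less in every lMZ library. Kif11 (chr19:37376403-37421859, plus strand, GRCm38) encodes the motor that pushes spindle poles apart. Its levels were 11.8, 9.62 and 19.2 FPKM in VZ, 5.49, 8.13 and 14.2 in mMZ and 0.682, 0.315 and 0.765 in lMZ. Every VZ and every mMZ library lay above all lMZ libraries, while the VZ and the mMZ ranges overlapped. The mean was 13.6 ± 5.04 FPKM in VZ and 0.587 ± 0.239 in lMZ (SD, n = 3 each), a 23.1-fold ratio, and the log2 difference was 3.15 ± 0.37 (SE, adjusted p = 0.0011).

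Kif23 (chr9:61915905-61946774, minus strand) encodes a motor of the central spindle that is needed for cytokinesis. It was measured at 15.5, 8.82 and 26.4 FPKM in VZ, 5.71, 8.43 and 9.61 in mMZ and 0.636, 0.614 and 0.515 in lMZ. The VZ mean was 28.7-fold the lMZ mean, and the log2 difference was 3.37 ± 0.38 (adjusted p = 0.00085). Kif20a (chr18:34624613-34633277, plus strand) encodes a further motor of cytokinesis. It had 11.4, 7.33 and 21.1 FPKM in VZ, 5.35, 5.82 and 9.20 in mMZ and 0.771, 0.745 and 1.17 in lMZ. Its VZ mean was 14.8-fold the lMZ mean, with a log2 difference of 2.80 ± 0.38 (adjusted p = 0.0019). For both genes the lMZ libraries again lay below all others. Of the annotated exon bases of Kif20a, 29.3% are shared with other genes, Cdc23 the most, and the use of strand in the authors' counting is not stated. For Kif4, described next, 15.1% are shared with other genes, Pdzd11 the most.

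Kif4 (chrX:100625737-100727214, plus strand) encodes a chromosome-bound motor that acts in chromosome condensation and at the central spindle. Its levels were 9.16, 7.58 and 8.18 FPKM in VZ, 3.04, 7.64 and 9.03 in mMZ and 0.602, 0.138 and 0.478 in lMZ. The VZ mean was 20.5-fold the lMZ mean, and the log2 difference was 2.74 ± 0.37 (adjusted p = 0.0018). Kif2c (chr4:117159639-117182639, minus strand) encodes a kinesin that takes microtubule ends apart instead of walking along them and corrects faulty attachments of chromosomes. It had 15.6, 9.99 and 43.6 FPKM in VZ, 6.27, 8.89 and 10.2 in mMZ and 1.06, 0.445 and 0.434 in lMZ. Its VZ mean was 35.6-fold the lMZ mean, with a log2 difference of 3.63 ± 0.47 (adjusted p = 0.0016). The highest value came from the shallowest library, where a single fragment on the longest Kif2c transcript was worth 1.36 FPKM. Without that library, VZ replicate 3, the ratio was 19.8-fold. Between VZ and lMZ, all 5 mitotic kinesins passed the test in each of 19 alternative settings, including those without each library in turn. Kif11, Kif23 and Kif4 reached 1 FPKM in no lMZ library. They entered the test through the other zones, so their calls are descriptions. The annotated pseudogenes Kif4-ps and Kif22-ps were listed at 0 in every library.

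**Figure D2:**
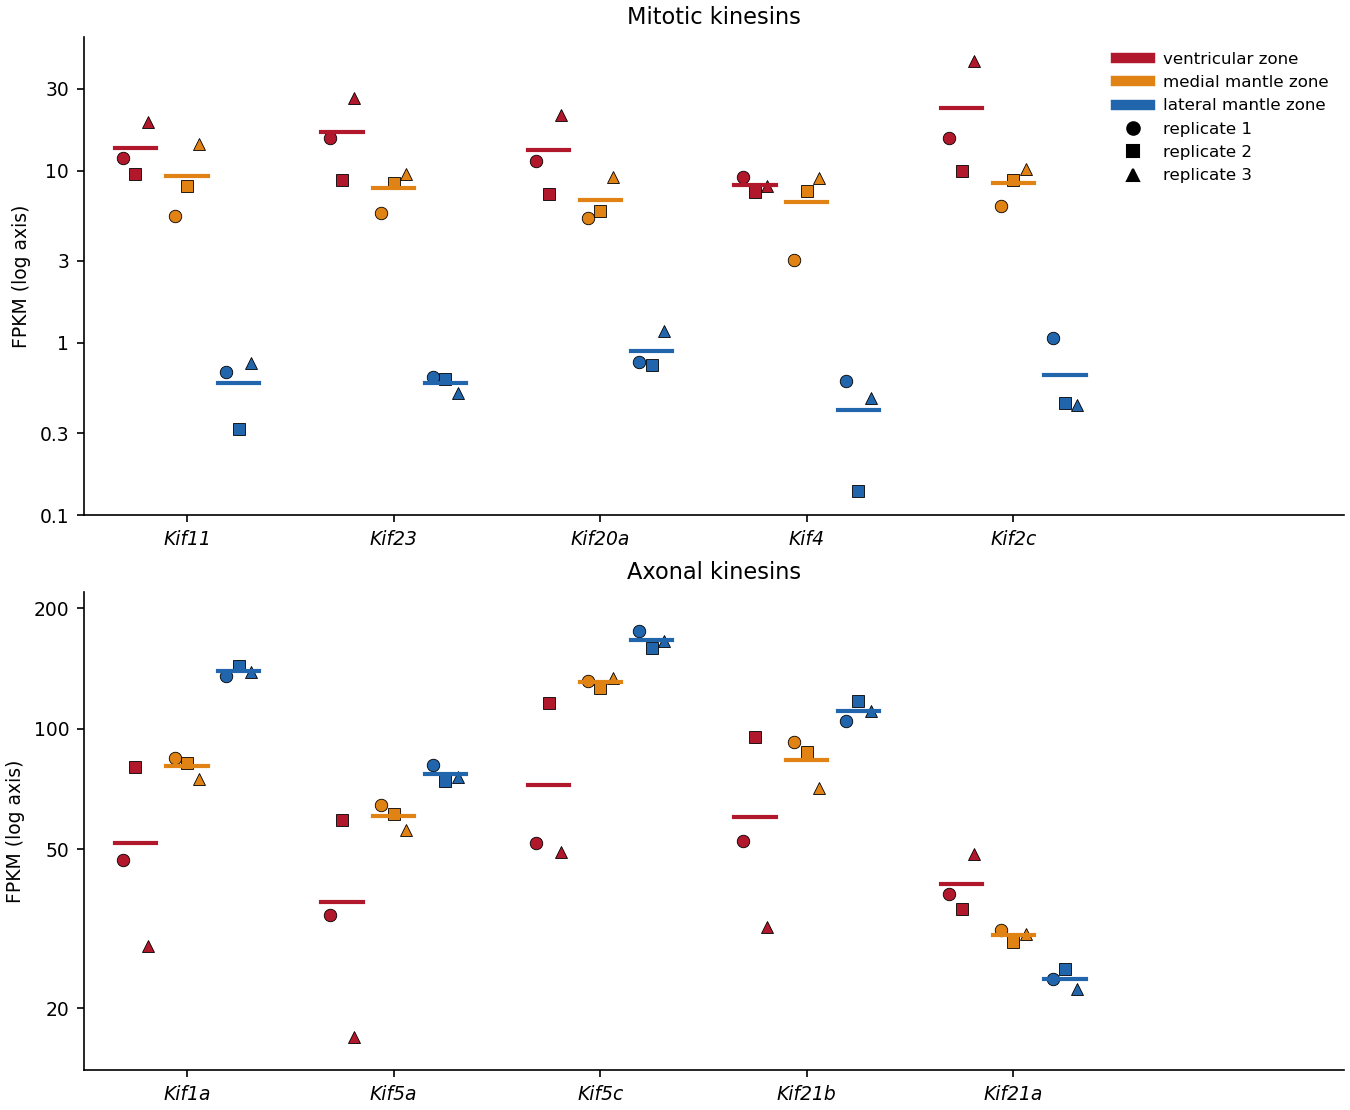
FPKM (log axes) of the 5 mitotic kinesins, top, and the 5 axonal kinesins, bottom, in each of the 9 libraries; colours are zones, marker shapes are replicates and lines are zone means. The lMZ libraries lie below all others for every mitotic kinesin and above all others for Kif1a, Kif5a, Kif5c and Kif21b, with the reverse order for Kif21a.

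A second group of 8 kinesins has roles in division that were not part of the choice above. Of them 6 were higher in VZ than in lMZ, beside 10.7% of all genes, with a median log2 difference of 2.09 over the 8. Kif14, Kif15, Kif18a, Kif18b and Kif20b reached 1 FPKM in no lMZ library and entered the test through the other zones. The count of 6, this median and the calls of those genes are therefore descriptions. Kif22, a motor that binds DNA and moves chromosome arms, had 25.6, 15.7 and 30.2 FPKM in VZ, 10.04, 13.0 and 24.7 in mMZ and 1.82, 0.845 and 1.66 in lMZ. It was the most abundant of the 6 that changed, and its log2 difference was 3.32 ± 0.37 (adjusted p = 0.00085). Kif15, which shares the work of Kif11 on the spindle, had 8.99, 6.6 and 17.0 FPKM in VZ, 3.96, 5.31 and 11.97 in mMZ and 0.683, 0.229 and 0.586 in lMZ (log2 difference 2.90 ± 0.43, VZ minus lMZ, adjusted p = 0.0031). Kif18b, which limits the length of astral microtubules, had 8.08, 6.23 and 10.2 FPKM in VZ, 3.67, 3.94 and 5.50 in mMZ and 0.218, 0.295 and 0.663 in lMZ. Its zones followed each other without overlap, and its VZ minus lMZ difference was 2.71 ± 0.30 (adjusted p = 0.0008).

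Lower levels but the same order were found for Kif18a, a motor that dampens chromosome movement, Kif14 and Kif20b, both of cytokinesis. Kif18a averaged 5.72 ± 3.90 FPKM in VZ, 2.84 ± 2.56 in mMZ and 0.117 ± 0.0756 in lMZ, with a VZ minus lMZ difference of 2.42 ± 0.53 (adjusted p = 0.014). That of Kif14 was 1.77 ± 0.42 (adjusted p = 0.020) and that of Kif20b 1.44 ± 0.33 (adjusted p = 0.018). The Kif18a call was lost without lMZ replicate 1 (adjusted p = 0.057) or lMZ replicate 2 (adjusted p = 0.058). Without VZ replicate 1 or any lMZ replicate, the adjusted p was 0.053 to 0.076 for Kif14 and 0.058 to 0.073 for Kif20b. The remaining members of the group did not pass. Kif24, which acts at centrioles, had 4.35 to 7.94 FPKM in VZ and 2.91 to 4.30 in lMZ, without overlap between these zones (difference 0.58 ± 0.32, adjusted p = 0.22). Kif2a, a relative of Kif2c that is also made by neurons, had 19.5 to 34.8 FPKM in VZ and 24.9 to 28.6 in lMZ (difference -0.10 ± 0.21, adjusted p = 0.75). Of its exon bases, 19.2% overlap other genes, Dimt1 the most.

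Markers of dividing cells moved with these kinesins. The sum over 6 such markers (Mki67, Top2a, Ccnb1, Ube2c, Cdk1 and Aurkb) was 194 to 673 FPKM in VZ, 132 to 280 in mMZ and 7.71 to 18.0 in lMZ. All 6 were higher in both VZ and mMZ than in lMZ, as were all 9 progenitor markers, beside 10.7% and 3.58% of all genes. Mki67, Sox9 and Slc1a3 reached 1 FPKM in no lMZ library and entered the test through VZ and mMZ, so these counts are descriptions. Red cell markers were also higher there, with 6 of 8 tested markers higher in each of these comparisons and sums of 2406 to 2831 FPKM in VZ, 1705 to 3173 in mMZ and 416 to 774 in lMZ. The red cell marker Slc4a1 likewise reached 1 FPKM in no lMZ library. The part of these cell types in the kinesin differences was not tested.

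The promoters of the mitotic kinesins were read because these genes moved together. Many genes expressed late in the cell cycle carry a cell cycle homology region, with the core TTTGAA, and CCAAT boxes close to their start. RefSeq promoters on GRCm38.p6, from 250 bases before to 50 after the start, matched 29 of the 35 kinesins. TTTGAA, searched on both strands, stood in this window in all 4 of the mitotic kinesins with a promoter (Kif11, Kif23, Kif2c and Kif4), in 5 of the 8 other mitotic kinesins and in 1 of 3 axonal kinesins, and in 20.2% of all 27025 genes. CCAAT, on both strands, was found in 3 of the 4, 4 of the 8 and 0 of the 3, and in 41.1% of all genes. Over all 29 kinesins each of the 2 motifs stood in 12 (41.4%), which for CCAAT is near the share of all genes. The windows also gave TTCGAA, searched as a second core, in Kif24 and in 1.80% of all genes. The E2F-type motif TTTGGCGC was found in Kif15 and Kif18a and in 0.585% of all genes. Its relative TTTCGCGC was found in 0 of the 29 kinesins and in 0.374% of all genes.

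Both TTTGAA and CCAAT stood in this window in 6 of the 12 mitotic and other mitotic kinesins and in 7.97% of all genes. They also stood together in 2 of the 8 kinesins of cilia, signalling and other functions with a promoter, Kif26b and Kif27. Neither of these passed in any zone comparison. Among axonal and other transport kinesins with a promoter, 0 of 3 and 0 of 6 held both. Within a shorter window of 60 bases before to 30 after the start, chosen after the positions were seen, both TTTGAA and CCAAT stood in 5 of the 12 mitotic and other mitotic kinesins, and in 0.847% of all genes. These were Kif11, Kif23, Kif4, Kif18b and Kif22, in which the first bases of the motifs were 26, 9, 24, 33 and 37 bases apart. The windows of Kif11, Kif23, Kif18b and Kif22, which hold both motifs, and of Kif15, which holds TTTGAA alone, are printed on the strand of the gene, with TTTGAA or its reverse complement TTCAAA and CCAAT or its reverse complement ATTGG in capitals. Those of the axonal kinesins Kif5c and Kif21a, which hold neither, follow for contrast. A match is a run of letters, and binding was not measured.
Kif11, chr19:37376322-37376411, plus strand: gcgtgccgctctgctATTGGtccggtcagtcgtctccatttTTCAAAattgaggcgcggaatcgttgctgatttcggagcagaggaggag
Kif23, chr9:61946770-61946859, minus strand: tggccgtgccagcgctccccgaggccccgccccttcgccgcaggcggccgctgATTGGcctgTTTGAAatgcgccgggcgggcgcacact
Kif18b, chr11:102925095-102925184, minus strand: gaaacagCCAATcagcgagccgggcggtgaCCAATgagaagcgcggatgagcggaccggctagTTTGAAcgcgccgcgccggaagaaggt
Kif22, chr7:127042391-127042480, minus strand: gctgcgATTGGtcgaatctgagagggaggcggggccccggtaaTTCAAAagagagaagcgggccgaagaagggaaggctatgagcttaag
Kif15, chr9:122951021-122951110, plus strand: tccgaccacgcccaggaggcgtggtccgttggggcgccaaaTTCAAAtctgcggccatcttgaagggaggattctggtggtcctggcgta
Kif5c, chr2:49619226-49619315, plus strand: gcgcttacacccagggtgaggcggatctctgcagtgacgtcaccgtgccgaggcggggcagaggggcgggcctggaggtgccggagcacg
Kif21a, chr15:91049922-91050011, minus strand: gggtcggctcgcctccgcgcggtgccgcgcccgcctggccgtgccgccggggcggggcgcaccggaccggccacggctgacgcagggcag
The Kif2c start in this table lies 3867 bases inside the GENCODE gene, with its TTTGAA 103 bases before that start, and is not printed, nor is the window of Kif4, which lies inside a GENCODE transcript with an earlier start. The starts of Kif14 and Kif27, which hold both motifs, and of the Kif1a window that holds TTTGAA likewise lie 1505, 4175 and 19471 bases inside their GENCODE genes.

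The axonal kinesins were abundant in all zones and did not behave as a single group. Kif1a (chr1:93015464-93101951, minus strand) encodes the motor of synaptic vesicle precursors. Its levels were 47.0, 80.0 and 28.7 FPKM in VZ, 84.6, 81.9 and 75.0 in mMZ and 136, 144 and 139 in lMZ. All VZ and mMZ libraries lay below all lMZ ones, and VZ replicate 2 lay within the mMZ range. The mean was 51.9 ± 26.0 FPKM in VZ and 139 ± 3.90 in lMZ (SD, n = 3 each), and the log2 difference was -1.53 ± 0.30 (adjusted p = 0.0090). The call held in all 19 alternative settings.

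Kif5a (chr10:127225696-127263348, minus strand) and Kif5c (chr2:49619298-49774778, plus strand) encode the neuronal heavy chains of kinesin-1, the motor of mitochondria and many vesicles. Kif5c had 51.7, 116 and 49.2 FPKM in VZ, 132, 126 and 134 in mMZ and 176, 159 and 166 in lMZ. Its zones did not overlap, in the order VZ, mMZ, lMZ from low to high, and its VZ minus lMZ difference was -1.31 ± 0.28 (adjusted p = 0.014). Without VZ replicate 1 the adjusted p of Kif5c was 0.053, and without lMZ replicate 1 it was 0.057, in a range of 5.9e-05 to 0.057 over the alternatives. Kif5a had 34.2, 59.2 and 16.9 FPKM in VZ, 64.6, 61.3 and 55.8 in mMZ and 81.3, 74.1 and 75.6 in lMZ. The lMZ libraries were again the highest, and the VZ minus lMZ difference was -1.21 ± 0.35 (adjusted p = 0.039). This call was the least secure of the axonal ones. It was kept in 7 of 19 alternatives, with adjusted p-values from 0.00023 to 0.117, and was lost without VZ replicate 1 (0.085), without any mMZ replicate (0.051 to 0.060) and without any lMZ replicate (0.099 to 0.117).

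The paralogues Kif21a and Kif21b, which belong to the kinesin-4 family and act on microtubule growth in neurons, ran in opposite directions. Kif21b (chr1:136131389-136177998, plus strand) had 52.5, 95.4 and 32.0 FPKM in VZ, 92.8, 87.3 and 71.0 in mMZ and 104, 117 and 111 in lMZ. The VZ libraries lay below the lMZ ones, but the difference of -1.01 ± 0.32 did not pass (adjusted p = 0.053). It passed without VZ replicate 2 (difference -1.41, adjusted p = 0.0023) and with libraries weighted by their own spread (limma array weights, adjusted p = 0.0005), and the alternatives ranged from 0.0005 to 0.147. With those weights (3.67, 0.473 and 0.108 for VZ replicates 1, 2 and 3) VZ rested mostly on replicate 1. Kif21a (chr15:90933276-91049948, minus strand) had 38.5, 35.4 and 48.6 FPKM in VZ, 31.4, 29.3 and 30.6 in mMZ and 23.7, 25.0 and 22.3 in lMZ. Its 3 zones did not overlap, and they stood in the order of the mitotic kinesins, not of the other axonal ones. Kif21a was higher in VZ than in lMZ by 0.75 ± 0.16 on the log2 scale (adjusted p = 0.014), or 1.73-fold. Without lMZ replicate 1 or 3 its adjusted p was 0.059, and the alternatives ranged from 0.00032 to 0.059.

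Neuronal markers moved with Kif1a, Kif5a and Kif5c. Of 14 such markers 11 were lower in VZ than in lMZ and 0 were higher, beside 8.93% and 10.7% of all genes. Their sums were 687 to 2006 FPKM in VZ and 2796 to 3199 in lMZ. The part of neuron content in the axonal kinesin differences was not tested.

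Summed within each library, the 5 mitotic kinesins came to 63.4, 43.3 and 118 FPKM in VZ, 25.9, 38.9 and 52.2 in mMZ and 3.75, 2.26 and 3.36 in lMZ. The 5 axonal kinesins summed to 224, 386 and 175 FPKM in VZ, 405, 386 and 366 in mMZ and 521, 519 and 513 in lMZ. Mitotic kinesins made up 12.51% ± 6.92 of the summed FPKM of all 35 genes in VZ, 5.49% ± 1.77 in mMZ and 0.412% ± 0.101 in lMZ (SD, n = 3 each). For each FPKM of mitotic kinesin, a library held 3.53, 8.91 and 1.48 FPKM of axonal kinesin in VZ, 15.7, 9.93 and 7.01 in mMZ and 139, 230 and 153 in lMZ. On the log2 scale the mitotic to axonal ratio was -1.85 ± 1.29 in VZ, -3.36 ± 0.58 in mMZ and -7.40 ± 0.39 in lMZ. The lMZ libraries stood apart from all others, while the VZ and mMZ libraries overlapped through VZ replicate 2, without which the VZ ratio was -1.19. Because the genes were chosen with earlier results known, these ratios are descriptions.

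**Figure D3:**
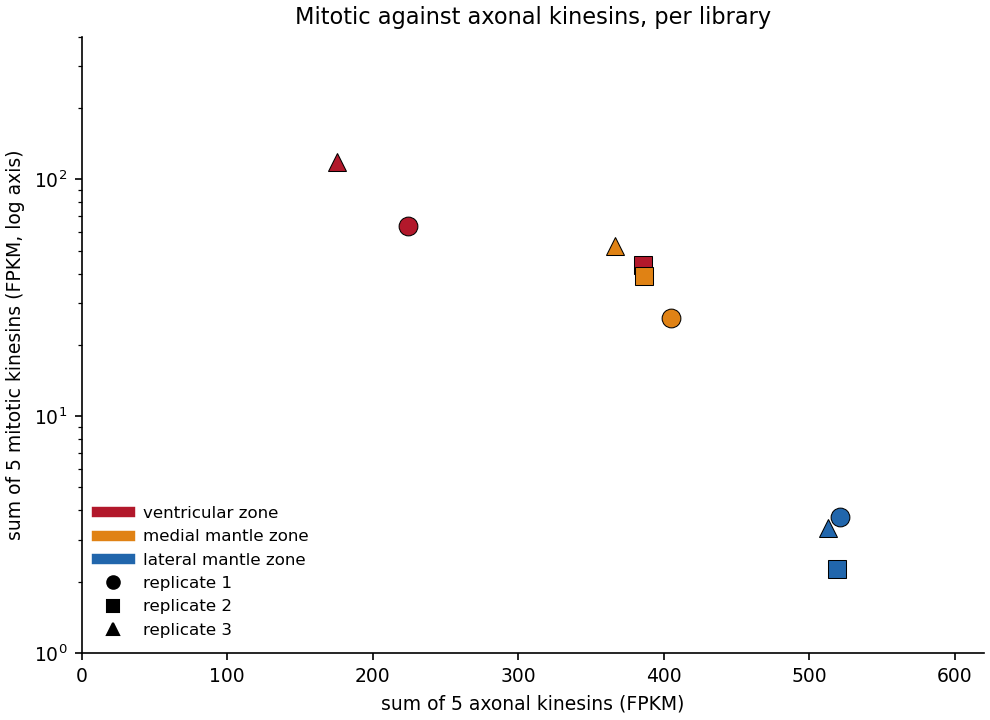
Summed FPKM of the 5 mitotic kinesins (log axis) against summed FPKM of the 5 axonal kinesins in each library; colours are zones and shapes are replicates. The lMZ libraries sit at 2.26 to 3.75 mitotic and 513 to 521 axonal FPKM, and VZ replicate 2 (43.3 and 386 FPKM) sits beside mMZ replicate 2 (38.9 and 386 FPKM).

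Sums also showed how the make-up of motor families differed by zone. Kif5b, the kinesin-1 heavy chain found in most cell types, made up 26.9%, 12.6% and 40.5% of the summed kinesin-1 FPKM in VZ, 12.1%, 13.2% and 15.5% in mMZ and 8.96%, 8.4% and 8.10% in lMZ. Kif5c made up 44.0% to 57.9% in VZ, 58.4% to 59.7% in mMZ and 62.3% to 63.1% in lMZ. Kif5b itself had 31.6, 25.2 and 45.1 FPKM in VZ, 27.1, 28.6 and 34.7 in mMZ and 25.3, 21.4 and 21.3 in lMZ, and its difference of 0.53 ± 0.22 (VZ minus lMZ) did not pass (adjusted p = 0.12). It passed without VZ replicate 2 (adjusted p = 0.036), with alternatives from 0.015 to 0.27. Kif21a was 42.3%, 27.1% and 60.3% of the Kif21a and Kif21b sum in VZ, 25.1% to 30.1% in mMZ and 16.8% to 18.5% in lMZ. Kif1b, a relative of Kif1a that is widely expressed, was 50.9% to 73.7% of the pair in VZ, 50.4% to 58.7% in mMZ and 36.7% to 39.9% in lMZ. Its own level averaged 76.6 ± 8.81 FPKM in VZ and 88.4 ± 7.03 in lMZ and did not pass (difference -0.21 ± 0.15, adjusted p = 0.36). Kif2c was 22.3% to 69.1% of the Kif2a and Kif2c sum in VZ, 17.6% to 27.9% in mMZ and 1.58% to 3.58% in lMZ.

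**Figure D4:**
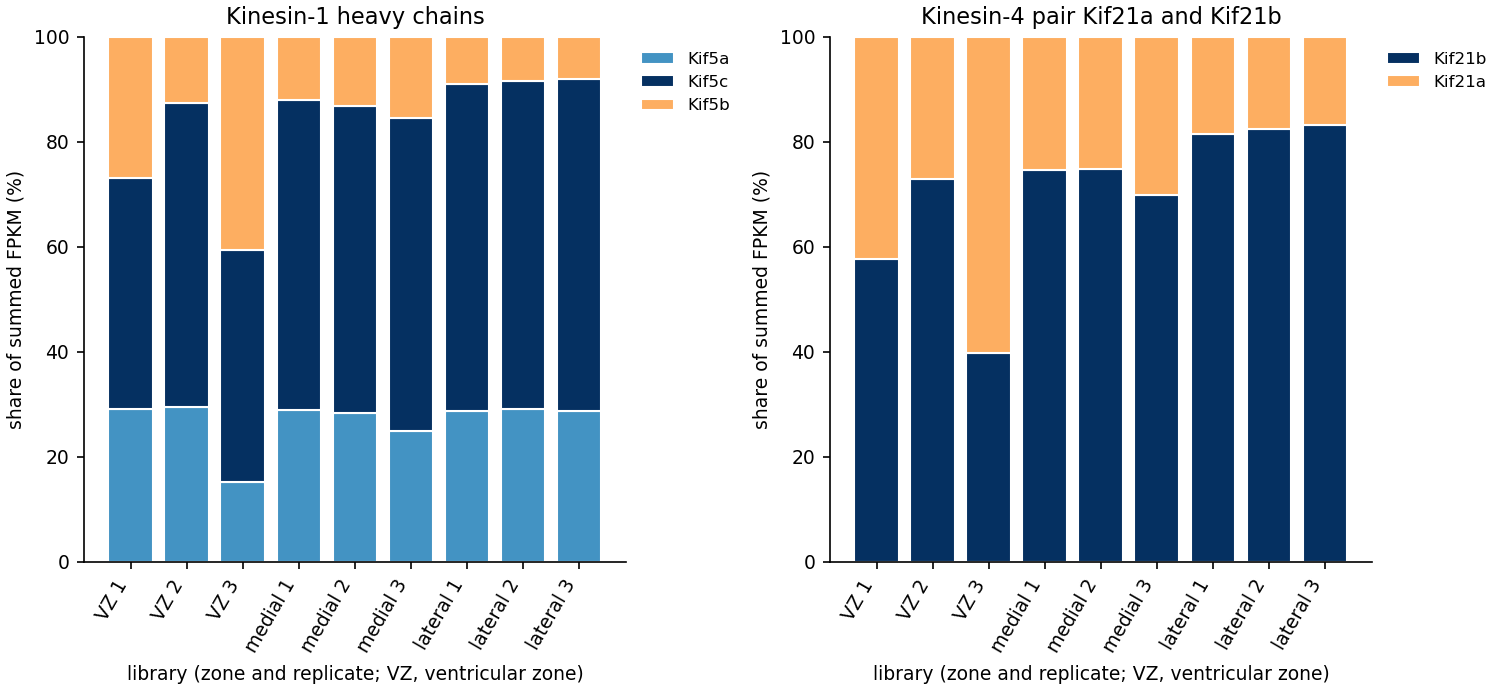
Shares of summed FPKM in each library, for the kinesin-1 heavy chains Kif5a, Kif5c and Kif5b on the left and for Kif21a and Kif21b on the right. The share of Kif5b is 8.10% to 8.96% in the lMZ libraries and reaches 40.5% in VZ replicate 3, and that of Kif21a is 16.8% to 18.5% in the lMZ libraries.

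Among the 8 other transport kinesins, 1 was higher and 2 were lower in VZ than in lMZ, beside 10.7% and 8.93% of all genes. Kif17, a dendritic and ciliary motor, had 0.523, 0.496 and 0 FPKM in VZ, 0.392, 0.352 and 0 in mMZ and 1.89, 1.83 and 2.65 in lMZ. The 0 values came from the shallow libraries, in which a single Kif17 fragment was worth 1.12 FPKM (VZ) and 0.541 FPKM (mMZ). Its difference was -1.24 ± 0.31. Because 1 FPKM was reached in the lMZ libraries alone, Kif17 entered the test through the zone where it is high, and its call is not read as support for a difference. Kif3c, a subunit of neuronal kinesin-2, had 16.2, 28.4 and 15.0 FPKM in VZ, 31.1, 28.5 and 27.6 in mMZ and 38.1, 35.7 and 36.0 in lMZ, and all lMZ libraries were the highest. Its difference was -0.90 ± 0.23 (adjusted p = 0.025). It was lost without VZ replicate 1 (0.079) or any lMZ replicate (0.073 to 0.090). Of the exon bases of Kif3c, 40.7% overlap other genes, 1110002L01Rik the most.

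Kif13a, an endosome motor, averaged 10.8 ± 1.90 FPKM in VZ, 10.8 ± 0.811 in mMZ and 5.96 ± 0.651 in lMZ. It was higher in VZ by 0.75 ± 0.22 (adjusted p = 0.041), a call kept in 8 of 19 alternatives. The adjusted p of Kif13a was 0.057 without VZ replicate 3, 0.070 without mMZ replicate 1 or 2 and 0.089 to 0.138 without VZ replicate 1 or any lMZ replicate. Besides Kif1b and Kif5b, the transport kinesins that did not pass were Kif1c, Kif13b and Kif16b. The level of Kif1c, a Golgi and vesicle motor, was 7.34 to 9.73 FPKM in VZ, 4.52 to 9.20 in mMZ and 9.66 to 16.3 in lMZ (VZ minus lMZ, adjusted p = 0.28). Kif13b and Kif16b, motors of vesicles and endosomes, stayed at 2.56 to 4.61 FPKM and 1.05 to 2.61 FPKM over all 9 libraries.

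The last group holds 9 kinesins of cilia, signalling and other functions, of which 6 were tested. Between VZ and lMZ 1 passed, near the 19.6% of all genes called there. Kif7, which acts at the tip of the primary cilium in Hedgehog signalling, had 7.48, 4.14 and 7.4 FPKM in VZ, 3.12, 3.68 and 1.60 in mMZ and 0.285, 0.490 and 0.577 in lMZ. The 3 zones did not overlap, and the VZ minus lMZ difference was 2.31 ± 0.34 (adjusted p = 0.0027), or 14.1-fold, and it passed in all 19 alternatives. Kif7 reached 1 FPKM in no lMZ library and entered the test through the other zones, so its call is a description. Of its exon bases, 20.3% overlap other genes, 9330171B17Rik the most. Kif26a, an atypical kinesin without motor activity, was abundant at 25.0 ± 5.70 FPKM in VZ, 33.0 ± 7.05 in mMZ and 21.1 ± 3.68 in lMZ. It did not pass between VZ and lMZ (difference 0.22 ± 0.24, adjusted p = 0.52). Its relative Kif26b ranged from 1.29 to 6.35 FPKM in VZ, 0.489 to 2.14 in mMZ and 1.75 to 9.50 in lMZ, with wide spread inside each zone. Kif6, Kif19a and Kif27 stayed at or below 2.15 FPKM in every library. Of the untested members, Kif9 reached 1.41 FPKM at most, Kif12 was above 0 in lMZ replicates 2 and 3 only, at 0.289 and 0.101 FPKM, and Kif2b was listed at 0 throughout.

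Between mMZ and lMZ, 8 kinesins were higher and 1 was lower in mMZ, where 3.58% and 0.543% of all tested genes were (4.12% in either direction). All 5 mitotic kinesins were among the higher ones, with differences of 2.01 ± 0.38 for Kif20a (adjusted p = 0.018), 2.34 ± 0.37 for Kif4 (0.0083), 2.46 ± 0.38 for Kif23 (0.0076), 2.52 ± 0.47 for Kif2c (0.018) and 2.62 ± 0.37 for Kif11 (0.0060). Of the other mitotic kinesins Kif22 (2.72 ± 0.37, adjusted p = 0.0048), Kif15 (2.32 ± 0.43, adjusted p = 0.018) and Kif18b (1.94 ± 0.30, adjusted p = 0.0076) were higher. Kif4, Kif11, Kif15, Kif18b and Kif23 reached 1 FPKM in no lMZ library and entered the test through the other zones. Their calls and the count of 8 are therefore descriptions. Kif20a, Kif2c and Kif15 were lost without mMZ replicate 2 or 3 or any lMZ replicate, with adjusted p-values of 0.0504 to 0.0904. In those fits 5 or 6 kinesins were higher, where 1.47% to 2.11% of all genes were called in either direction. The lower kinesin was Kif17 (difference -1.33 ± 0.31), which entered the test through lMZ alone, and no kinesin was lower when 1 FPKM was required in 6 libraries. Without VZ replicate 3, 11 kinesins were higher and 2 lower, beside 12.7% of all genes, with Kif1a among the lower ones (adjusted p = 0.027). Without VZ replicate 2, 9 were higher and 2 lower, beside 6.44% of all genes. Kif7 was then among the higher ones (adjusted p = 0.040, against 0.057 with all libraries).

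None of the 5 axonal kinesins passed between mMZ and lMZ, although their libraries did not overlap, with Kif21a higher and the other 4 lower in mMZ. Such separation was found for 40.4% of all tested genes, 25.7% higher and 14.8% lower, and for 17 kinesins higher and 8 lower. The differences were -0.79 ± 0.30 for Kif1a (adjusted p = 0.17), -0.35 ± 0.28 for Kif5c (0.52), -0.34 ± 0.35 for Kif5a (0.63), -0.41 ± 0.32 for Kif21b (0.51) and 0.35 ± 0.16 for Kif21a (0.26). Kif1a passed without VZ replicate 2 (0.040) or VZ replicate 3 (0.027). With only these zones in the fit Kif1a (0.0042) and Kif5c (0.0496) passed, and with array weights Kif1a (0.0027) and Kif21a (0.020).

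Between VZ and mMZ limma called 0 of 32 kinesins, where 0% of all genes were called, and the lowest adjusted p among kinesins was 0.39. At an unadjusted p below 0.05, 5 kinesins were higher and 4 lower in VZ, as were 518 and 1143 of all 14004 genes. The mitotic kinesins had differences from 0.40 for Kif4 to 1.11 for Kif2c, and the libraries of both zones overlapped for all 5. Zones did not overlap for Kif18b, Kif21a and Kif7, higher in VZ, and for Kif5c and Kif1b, lower there, beside 14.7% of all genes, 5.36% higher and 9.30% lower. With array weights, 11 kinesins were higher and 7 lower, beside 778 and 1983 of all genes (19.7%). In that fit VZ rested mostly on replicate 1 (weight 3.67, against 0.473 and 0.108 for VZ replicates 2 and 3). Without VZ replicate 2, where 93 of all genes were higher and 473 lower (4.09%), 5 kinesins were lower in VZ: Kif5c (difference -1.36, adjusted p = 0.0096), Kif1a (-1.11, 0.023), Kif3c (-0.85, 0.027), Kif5a (-1.29, 0.031) and Kif21b (-1.0, 0.042).

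Genes that work with these motors were set beside them. All 16 partners of mitotic kinesins, from spindle kinases to the central spindle, were higher in VZ than in lMZ (median log2 difference 3.25). Between mMZ and lMZ 14 were higher in mMZ, and the shares of all genes higher were 10.7% and 3.58%. The partners included the mitotic cyclin Ccnb1 (4.72, VZ minus lMZ), its kinase Cdk1 (4.0), the spindle assembly factor Tpx2 (3.77) and the checkpoint kinase Bub1b (3.63). Aurkb, Ccnb1 and Cdk1 also stand in the list of dividing cell markers. The partner Anln, and Cenpe, described next, reached 1 FPKM in no lMZ library. Both entered the test through the other zones, so the partner counts and the Cenpe call are descriptions. Of the 4 kinesins with other symbols, Kifc1 (3.0 ± 0.31) and Cenpe (2.59 ± 0.39), both of the spindle, were higher in VZ than in lMZ, and Kifc2 (-2.04 ± 0.48) and Kifc3 (-1.40 ± 0.34), C-terminal motors of transport, were lower. Kifc1 had 21.0, 12.6 and 24.5 FPKM in VZ and 1.31, 1.62 and 1.45 in lMZ. Kifc2 had 5.75, 13.3 and 2.41 FPKM in VZ and 27.0, 33.5 and 22.7 in lMZ.

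Of 15 kinesin light chain and adaptor genes, 3 were lower in VZ than in lMZ and 0 higher, near the 19.6% of all genes called in that comparison. These were the light chain Klc1 (-0.91 ± 0.27, adjusted p = 0.041), the kinesin-2 subunit Kifap3 (-1.32 ± 0.29, adjusted p = 0.016) and Hap1, a transport adaptor abundant in the hypothalamus (-1.54 ± 0.40, adjusted p = 0.026). Klc1 had 183, 275 and 117 FPKM in VZ and 344, 327 and 349 in lMZ. Of 18 genes of dynein and dynactin, the motor complex that runs the opposite way, 1 was higher and 3 were lower, again near the 19.6% of all genes. Nde1, a dynein regulator of progenitor division, was higher by 4.10 ± 0.47 (adjusted p = 0.00094), with 39.9, 25.2 and 96.9 FPKM in VZ and 1.42, 1.24 and 2.84 in lMZ. Dynll2 (-1.72 ± 0.31), Dynlt1a (-1.11 ± 0.17) and Dync1i2 (-0.51 ± 0.15), chains of dynein, were lower. Among markers of other cells, those of microglia summed to 14.1 to 25.6 FPKM in VZ and 38.9 to 57.0 in lMZ. Of them 2 of 9 were lower in VZ, beside 8.93% of all genes. None of 10 endothelial or 7 pericyte and meningeal markers passed in any comparison.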

How the data were processed

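The authors deposited 1 FPKM value per gene and library. Per the labels' protocols, mRNA libraries were made from microdissected tissue with a NEBNext Ultra RNA kit and read as 100 bp pairs. Bowtie2 2.1.0 and the mm10 build are named in the submitters' processing notes, and the program behind the FPKM is not given in those sources. After 42 identical rows and 133 further rows of repeated symbols were removed, 38195 genes were left. Depth per library was estimated from the steps of low values and limits what low FPKM can show.

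FPKM are not counts, so limma 3.58.1 (R 4.3.3) fitted log2(FPKM + 1) with 1 mean per zone over all 9 libraries, empirical Bayes and an intensity trend, for the 14004 genes that reached 1 FPKM in 3 or more libraries. The pseudocount understates the change of low genes. Tests were two-sided, with Benjamini-Hochberg adjustment over all tested genes per comparison and a threshold of 0.05. The fit was tested on simulated data. The 10 kinesins of the rule are given in full, others where they passed, and up to 4 changed partner genes per list. Members and lists were chosen with earlier results of these data known. No pair of libraries had identical values. Exon overlaps and spans are from GENCODE M21, promoters from RefSeq. Kif1bp, Kbp and Ahsp were not analysed here. Alternatives changed the pseudocount, filter, scaling, trend, weights, libraries and block.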

Additional observations from a re-analysis of the deposited data

How the results depend on the processing

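Each comparison was refitted under 19 alternatives, and no kinesin reversed its direction among called values. Called kinesins lower in VZ than in lMZ (5 in the reported fit) numbered 3 with a pseudocount of 0.1 and 3 with only those 2 zones in the fit. These settings called 16.1% and 13.1% of all genes in either direction, against 19.6%. Between VZ and mMZ, where 0 were called, array weights gave 11 higher and 7 lower, beside 19.7% of all genes. Those weights were 3.67, 0.473 and 0.108 for VZ replicates 1, 2 and 3, so VZ then rested mostly on replicate 1. Between mMZ and lMZ (8 higher, 1 lower), array weights gave 16 higher and 2 lower, beside 2467 and 1233 of all genes (26.4%). The lower count there was 0 with a pseudocount of 0.1, 0 with a filter of 6 libraries, 0 with the replicate number as a block and 3 with only the 2 zones compared. Those settings called 3.95%, 4.53%, 5.02% and 15.4% of all genes. Leaving out each library in turn gave 9 to 15 higher and 1 to 6 lower (VZ against lMZ), 0 to 0 and 0 to 5 (VZ against mMZ) and 5 to 11 and 0 to 2 (mMZ against lMZ). The shares of all genes called were 6.82% to 28.6%, 0% to 4.09% and 1.47% to 12.7%, in the same order. As a mean of log2(FPKM + 1), the lMZ mitotic to axonal ratio was -5.76, against -7.40. Without a library the log2 ratio of summed FPKM was -2.49 to -1.19 in VZ, -3.64 to -3.06 in mMZ and -7.55 to -7.18 in lMZ. The cause of these changes was not tested. Trimmed-mean scaling gave 1361 genes higher and 1529 lower of all tested (VZ minus lMZ), against 1500 and 1250 with the deposited scaling.

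Replicate numbers are not said to mark a shared embryo or day, and same-numbered libraries did not correlate above 0.1 in every pair. Deviations from the zone means correlated at -0.10, 0.09 and 0.03 (VZ and lMZ), 0.09, 0.16 and 0.25 (VZ and mMZ) and 0.02, 0.22 and 0.11 (mMZ and lMZ). The highest correlations between different numbers were 0.05, -0.01 and 0.06, then 0.13, 0.23 and -0.18, then 0.01, -0.02 and 0.00, so mMZ and lMZ libraries correlated best with their own number, a hint from the data and not from the design. With the replicate block, 14 kinesins were higher and 6 lower (VZ against lMZ), 0 and 0 (VZ against mMZ) and 8 and 0 (mMZ against lMZ). The shares of all genes called were 20.7%, 0% and 5.02%. With that block Kif21b was gained (VZ minus lMZ, adjusted p = 0.036) and Kif17 lost (mMZ minus lMZ, adjusted p = 0.061).

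Depth limits the shallow libraries: in VZ replicate 3, 1 fragment on a 2 kb transcript equals 1.94 FPKM.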
